A study of Mus musculus with 17 samples.

Results

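The comparison described here sets 4 libraries of mouse choroid plexus taken after 3 days of dextran sodium sulfate (DSS) and 2 further days of water (T5) against 4 libraries taken at the end of the 3 days of DSS (T3). These 8 libraries, chosen by the time point in their labels, are part of 17 in all. Both groups are C57BL/6 mice, and both had received DSS, a polymer that injures the lining of the colon and induces colitis. The question is how the transcriptome of the tissue differs once DSS has been withdrawn. Control samples (CTRL, n = 5) entered the same fit and are given beside the values. T1 (1 day of DSS, n = 4) entered only the filter on low counts, the normalisation and the estimate of the spread. The tissue was the choroid plexus of the lateral ventricles, from which total RNA was taken and turned into cDNA with the SMART-Seq v4 kit. Separate animals are not stated for the samples within a group, so p-values measure the spread between these samples, which may be technical.

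The choroid plexus is a folded epithelium on a core of leaky capillaries, fibroblasts and macrophages. Its cells secrete cerebrospinal fluid, clear solutes from it, release hormones and growth factors into it, and close the path between blood and fluid with tight junctions. The tissue also has a strong circadian clock, responds to interferon and other signals carried in blood, and serves as a gate for leukocytes. DSS colitis is an inflammation of the gut that sends such signals into the circulation while DSS is given and as the mucosa heals.

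Library totals ran from 12477553 to 19928986 counts in T5 and from 10881890 to 26839417 counts in T3. T3 replicate 4 stood apart from the other T3 libraries. Thinned to 8875921 counts it had 25351 detected genes, against 19694 to 20366 in T5 and 19347 to 19863 in T3 replicates 1 to 3. Expression is given as CPM, counts divided by TMM-scaled library size. Pearson r of log2 CPM across genes was 0.917 to 0.93 between it and the other T3 libraries, 0.976 to 0.981 among those, and 0.943 to 0.962 among T5 libraries. The mean log2 CPM of neuron, astrocyte and oligodendrocyte markers was 3.96, 5.46, 6.35 and 4.08 in T5, against 2.45, 3.04, 2.66 and 5.40 in T3. All 4 T5 libraries thus carried more brain marker RNA than T3 replicates 1 to 3, and T3 replicate 4 lay within the T5 range. The 18 choroid plexus epithelium markers were all detected, at a mean log2 CPM of 10.04 to 10.50 in T5 and 10.06 to 10.46 in T3. Where leaving out T3 replicate 4 or another library moved the median of a described list by more than 1.5 times or turned its sign, the value without that library, or the range over such leave-outs, follows.

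Of 16851 genes tested with edgeR's quasi-likelihood test, 0 (0%) differed between T5 and T3 at a Benjamini-Hochberg adjusted p under 0.05. The lowest adjusted p was 0.267, shared by 75 genes. At an unadjusted p under 0.05 there were 1764 genes (10.5% of those tested, where 843 would be expected by chance), 727 of them higher in T5 (4.31%) and 1037 lower (6.15%). The 4 T5 libraries lay wholly above the 4 T3 libraries for 513 genes (3.04%) and wholly below for 727 (4.31%), 7.36% in all. With limma voom 0 genes (0%) passed and 2633 had an unadjusted p under 0.05. DESeq2 called 84 genes (0.498%), 31 higher (0.184%) and 53 lower (0.315%). Differences below are therefore given as measured levels and fold changes; none passed the edgeR test with all libraries. The median log2 fold change of all genes tested was 0.007, and 50.9% of genes had a positive one. Counts for gene lists below are to be set beside these shares of all genes.

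The 12 genes named as higher in T5 had the smallest p among genes whose T5 and T3 libraries did not overlap. Absence of overlap was thus a condition of the choice and is not a result for them. The first in this ranking was Bc1, a noncoding RNA of rodents found in neuronal dendrites. Bc1 stood at 8.26, 10.4, 13.6 and 9.595 CPM in T5, against 3.18, 3.88, 3.97 and 1.85 CPM in T3. Every T5 library was above every T3 library, with a log2 fold change of 1.70 ± 0.33 (SE). Sequences related to Bc1 occur as repeats in the rodent genome, so its reads may be shared. Rhou, an atypical small GTPase (gene at chr8:123653929-123663884), stood at 11.1, 10.2, 26.5 and 7.97 CPM in T5, against 2.89, 2.98, 2.83 and 4.78 CPM in T3, a log2 fold change of 2.04 ± 0.44. T5 replicate 3 was the highest in T5, T3 replicate 4 the highest in T3, and the groups did not overlap. Gna12, the alpha subunit of a heterotrimeric G protein (chr5:140758408-140830431), stood at 108, 97.9, 130 and 84.03 CPM in T5, against 49.4, 55.3, 41.5 and 44.2 CPM in T3. The lowest T5 library was above the highest T3 library, with a log2 fold change of 1.14 ± 0.27, and CTRL averaged 94.6 ± 19.1 CPM in CTRL (SD, n = 5), near the T5 level. Arhgdig, an inhibitor that holds small GTPases in their inactive form, averaged 43.4 ± 7.57 CPM in T5 and 25.7 ± 3.96 CPM in T3 (SD, n = 4 each), without overlap.

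Among the other genes of this ranking, Jdp2, a leucine zipper protein that represses AP-1 targets, averaged 12.8 ± 3.74 CPM in T5 and 6.65 ± 0.605 CPM in T3. Ramp3, which pairs with the calcitonin receptor-like receptor to form an adrenomedullin receptor, stood at 4.21, 6.38, 5.61 and 4.54 CPM in T5, against 1.64, 2.95, 2.42 and 1.98 CPM in T3. Its T5 values were all above its T3 values although both were low, and CTRL averaged 4.44 ± 1.35 CPM in CTRL. Kmt5a, a histone methyltransferase, had a log2 fold change of 0.54 ± 0.12, Ssr2, a subunit of the translocon-associated complex of the endoplasmic reticulum, 0.54 ± 0.12, Selenow, a selenoprotein, 0.66 ± 0.15, and Jpt1 0.44 ± 0.10. Hist1h4d, a histone H4 gene with near-identical copies that makes its reads uncertain, had 0.75 ± 0.17. None of these 12 genes overlapped between the groups, which the choice required. Tmsb4x, a thymosin that sequesters actin monomers and was chosen after its values were seen, stood at 508, 811, 789.9 and 480 CPM in T5, against 325, 250.2, 317 and 435 CPM in T3, a log2 fold change of 0.96 ± 0.25.

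**Figure D1:**
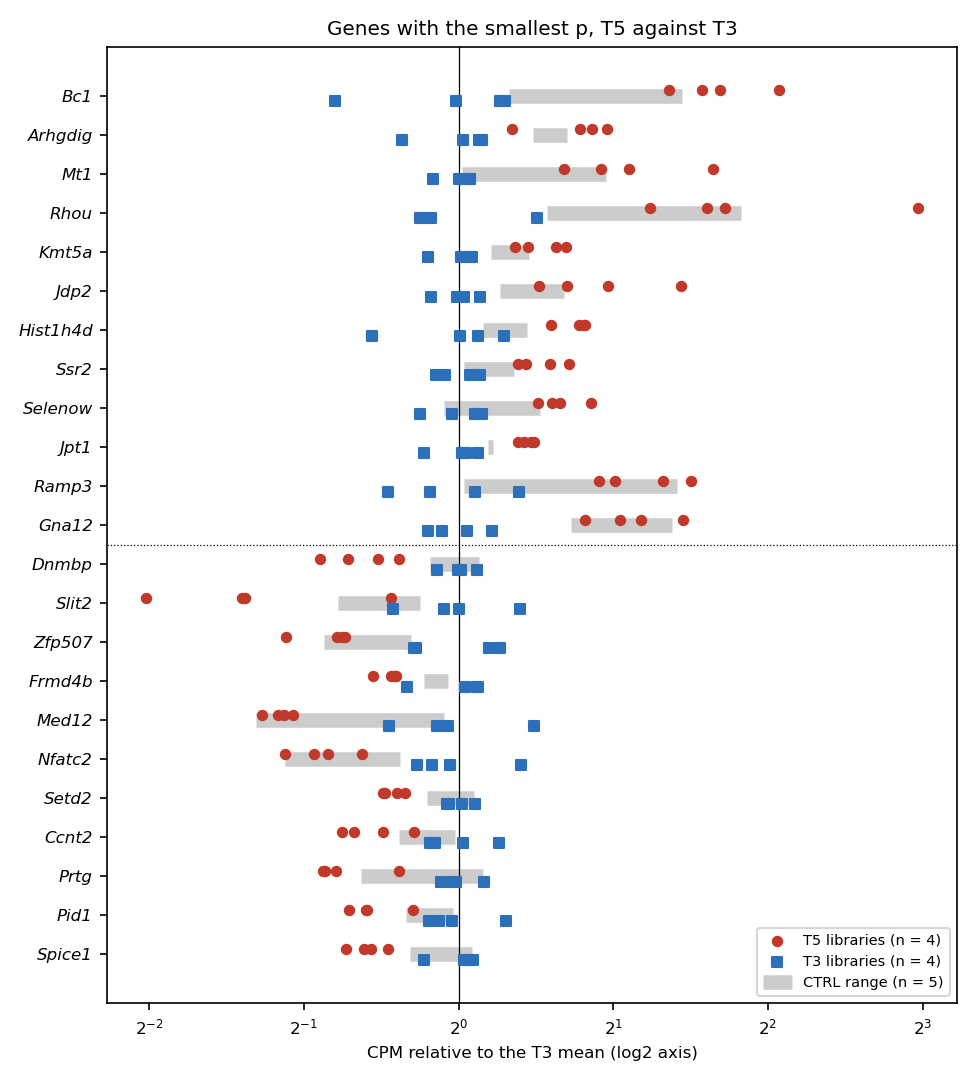
CPM of higher and lower genes with the smallest p, each divided by its T3 mean, on a log2 axis. Points are T5 and T3 libraries (n = 4 each) and grey bars the CTRL range (n = 5). The T5 points of each gene lie wholly to one side of its T3 points, as the choice of genes required.

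The lower genes of the ranking were chosen under the same conditions. They were led by Dnmbp, a guanine nucleotide exchange factor for Cdc42 at epithelial junctions (chr19:43846821-43940191). Dnmbp stood at 19.6, 15.04, 17.03 and 21.4 CPM in T5, against 28.3, 27.9, 25.4 and 30.4 CPM in T3. All T5 values were below all T3 values, with a log2 fold change of -0.62 ± 0.13, and CTRL averaged 27.5 ± 2.24 CPM in CTRL, near the T3 level. Slit2, a secreted ligand of Robo receptors that repels growing axons and migrating cells (chr5:47983138-48307733), stood at 14.2, 21.8, 22.1 and 42.6 CPM in T5, against 42.9, 53.8, 57.6 and 75.8 CPM in T3. The groups were separated only narrowly, since T5 replicate 4 was close to T3 replicate 1, and the log2 fold change was -1.20 ± 0.26. Without T5 replicate 4 the value was -1.58 and the edgeR adjusted p 0.0197, the 1 call that leaving out a library produced. Its adjusted p over the 16 alternatives was 0.0114 to 0.595.

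Of the other lower genes, Med12, a subunit of the Mediator kinase module, stood at 9.27, 8.897, 8.09 and 8.66 CPM in T5, against 17.7, 18.6, 14.3 and 27.3 CPM in T3, and the T5 libraries were closely alike. Setd2, a histone methyltransferase of transcribed genes, had a log2 fold change of -0.43 ± 0.10, Ccnt2, a cyclin of the elongation factor P-TEFb, -0.54 ± 0.13, Nfatc2, a calcium-regulated transcription factor, -0.87 ± 0.20, and the zinc finger gene Zfp507 -0.84 ± 0.19. Frmd4b had -0.45 ± 0.10, Pid1 -0.54 ± 0.13, Prtg, a surface protein of the immunoglobulin family, -0.71 ± 0.17, and Spice1, a protein of spindles and centrioles, -0.59 ± 0.14. All the genes named from this ranking, in both directions, had an edgeR adjusted p of 0.267 and DESeq2 adjusted p of 0.0071 to 0.0430. Over all alternatives their adjusted p ran from 0.0071 to 0.632.

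Other lower genes were chosen after their values were seen. Srsf5, a splicing factor, stood at 164, 99.9, 133 and 166 CPM in T5, against 265, 207, 231 and 410.3 CPM in T3. No T5 library reached the lowest T3 value, and the log2 fold change was -0.98 ± 0.25 (-0.74 without T3 replicate 4). Fras1 and Frem1, partners in an extracellular complex that anchors epithelia to the matrix beneath, had log2 fold changes of -1.14 ± 0.29 and -0.56 ± 0.14. Eif2s3y, a translation factor gene on the Y chromosome, stood at 18.7, 13.5, 16.2 and 22.9 CPM in T5, against 35.5, 24.1, 28.9 and 53.4 CPM in T3. Its groups did not overlap, and Ddx3y, another Y-linked gene, was detected in all 8 libraries at 98.7 to 133 CPM in T5 and 129 to 167 CPM in T3, so both groups had the male pattern.

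Of the 19 circadian clock genes tested, Arntl, Npas2 and Dbp had T5 and T3 libraries that did not overlap, as did 7.36% of all genes. Levels of clock genes depend on the time of day. The labels give no time of day of collection, so a difference in it between the groups was not tested. Arntl, which encodes BMAL1, the core activator of the clock (chr7:113207465-113314126), stood at 15.9, 17.9, 15.8 and 19.3 CPM in T5, against 30.5, 36.1, 24.3 and 35.6 CPM in T3. The T5 libraries were tightly grouped, all were below the lowest T3 library, and they lay near CTRL, which averaged 14.8 ± 2.96 CPM in CTRL. The log2 fold change was -0.88 ± 0.21 (edgeR adjusted p = 0.267, 0.0349 to 0.595 over the alternatives). Npas2, a partner of BMAL1 in the activator complex, stood at 16.04, 11.7, 12.3 and 13.4 CPM in T5, against 17.7, 18.8, 20.1 and 27.2 CPM in T3, again without overlap, with a log2 fold change of -0.65 ± 0.24. Dbp, an output gene switched on through E-boxes, stood at 33.5, 28.3, 26.7 and 25.4 CPM in T5, against 12.6, 14.8, 21.2 and 13.9 CPM in T3. It ran the other way, with every T5 library above every T3 library and a log2 fold change of 0.86 ± 0.24 (adjusted p = 0.296 by edgeR).

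The repressors of the clock did not separate the groups. Per1 averaged 8.82 ± 1.88 CPM in T5 and 8.82 ± 3.55 CPM in T3, Per2 10.5 ± 1.93 CPM in T5 and 13.6 ± 3.36 CPM in T3, Nr1d1 (REV-ERB alpha) 30.4 ± 3.69 CPM in T5 and 28.4 ± 4.72 CPM in T3 and Ciart 2.23 ± 0.712 CPM in T5 and 2.03 ± 1.1 CPM in T3, all overlapping. Tef, an output gene related to Dbp, averaged 89.7 ± 17.7 CPM in T5 and 71.6 ± 13.5 CPM in T3, a log2 fold change of 0.32 ± 0.18 with overlap. Of the 19 clock genes tested, 1 was higher and 2 were lower at an unadjusted p under 0.05, against 4.31% and 6.15% of all genes. Their median log2 fold change was -0.07 against 0.007 for all genes. That median was between -0.226 (without T5 replicate 2) and -0.01 (without T3 replicate 4, with 3 higher and 2 lower) when each library was left out. Set against CTRL, Arntl had a log2 fold change of 0.22 in T5 and 1.09 in T3, Npas2 0.04 in T5 and 0.69 in T3, and Dbp -0.22 in T5 and -1.08 in T3. These comparisons share libraries with each other and with T5 against T3.

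Promoters of the 3 genes were read for elements known to carry the clock's feedback. BMAL1 transcription is driven through ROR elements, whose core is AGGTCA. RefSeq (GRCm38.p6) gives 2 starts for Arntl; the 300 bases around the second, from 250 before to 50 after it (chr7:113207261-113207560, plus strand), hold 1 match, in capitals, shown here as the promoter of the clock gene with the lowest p.
Arntl: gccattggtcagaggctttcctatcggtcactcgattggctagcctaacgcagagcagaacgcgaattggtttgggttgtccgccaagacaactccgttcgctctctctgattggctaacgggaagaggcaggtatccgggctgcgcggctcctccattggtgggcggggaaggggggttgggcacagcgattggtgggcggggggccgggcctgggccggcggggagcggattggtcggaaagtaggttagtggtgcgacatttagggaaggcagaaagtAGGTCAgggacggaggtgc
The match begins at position 32, with the start as position 1. The core occurs on either strand in 16.3% of 32851 mouse promoters of this length. The window of the first Arntl start and that of Npas2 held no match, and the Dbp window held no CACGTG, the E-box, which 7.15% of promoters have. These are matches of letters only.

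**Figure D2:**
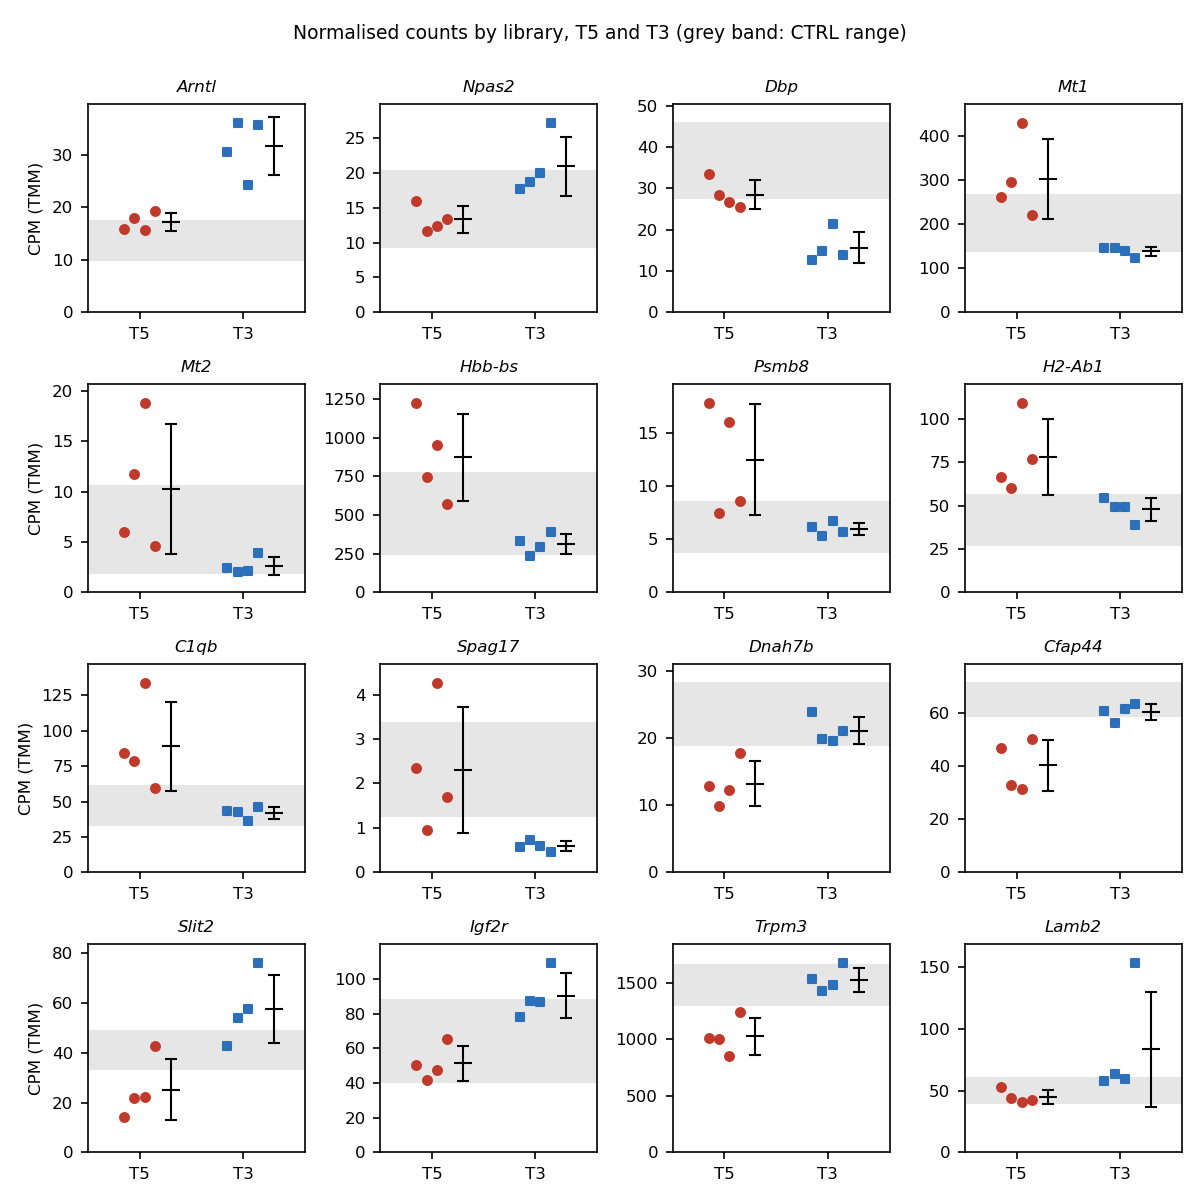
CPM of 16 genes by library, linear axis from 0, T5 on the left and T3 on the right of each panel (n = 4 each), with mean and SD beside the points and the CTRL range as a grey band. Arntl in T5 lies near the CTRL band while its T3 values lie above it, and Psmb8 and C1qb in T5 reach above the band.

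Both metallothioneins on the metal handling list were higher in every T5 library than in any T3 library. Mt1, a metallothionein that buffers zinc and copper and responds to metals, glucocorticoids and acute phase signals, stood at 261, 295, 429.5 and 220.4 CPM in T5, against 144, 145, 138 and 123 CPM in T3. T3 libraries were nearly alike and all T5 libraries were above them, with a log2 fold change of 1.13 ± 0.23. CTRL averaged 201 ± 57.1 CPM in CTRL, between the groups. Mt2, its neighbour on chromosome 8, stood at 5.97, 11.7, 18.8 and 4.59 CPM in T5, against 2.41, 1.98, 2.06 and 3.87 CPM in T3, a log2 fold change of 1.99 ± 0.61 (edgeR adjusted p = 0.342). With a covariate for brain marker RNA these values were 0.78 for Mt1 and 0.92 for Mt2. The highest T5 library for both genes was replicate 3, which also had the most brain marker RNA.

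The promoters of both genes are printed because they share an element known to bind the metal-sensing factor MTF1. They are from RefSeq GRCm38.p6 (Mt1 chr8:94178839-94179138, plus strand; Mt2 chr8:94172368-94172667, plus strand), and capitals mark TGCACNC or TGCGCNC on either strand.
Mt1: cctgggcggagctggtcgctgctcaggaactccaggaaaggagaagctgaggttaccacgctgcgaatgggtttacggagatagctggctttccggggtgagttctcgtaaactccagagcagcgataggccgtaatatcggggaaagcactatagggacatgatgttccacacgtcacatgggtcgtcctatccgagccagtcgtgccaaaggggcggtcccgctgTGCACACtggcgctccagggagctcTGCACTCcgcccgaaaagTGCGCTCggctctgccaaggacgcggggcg
Mt2: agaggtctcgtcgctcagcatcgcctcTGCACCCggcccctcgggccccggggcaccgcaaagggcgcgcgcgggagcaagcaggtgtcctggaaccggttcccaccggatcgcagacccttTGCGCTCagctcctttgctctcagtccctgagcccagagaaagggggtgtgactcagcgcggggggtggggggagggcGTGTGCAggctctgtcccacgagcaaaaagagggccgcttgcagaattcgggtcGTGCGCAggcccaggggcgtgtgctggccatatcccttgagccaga
Mt1 has 3 matches and Mt2 has 4, none overlapping, and 25.7% of promoters have at least 1. The 3 of Mt1 begin at positions -23, 3 and 21, and the 4 of Mt2 at -223, -128, -50 and 5.

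Iron genes of the same list were less even. Fth1, the ferritin heavy chain that stores iron, stood at 3760, 3681, 7433 and 4182 CPM in T5, against 3301, 3235, 3646 and 2201 CPM in T3. The T5 values were above the T3 values by a narrow margin in all but T5 replicate 3, and the log2 fold change was 0.62 ± 0.22. Tfrc, the transferrin receptor that takes iron up, averaged 29.2 CPM in T5 and 15.99 CPM in T3, without overlap (log2 fold change 0.88). It was not among the 4 members with the smallest p, and its unadjusted edgeR p was not under 0.05. Slc39a14, a zinc and iron importer, was lower in T5, at 35.5 ± 9.97 CPM in T5 and 52.3 ± 8.39 CPM in T3, with overlap. Of 18 metal handling genes tested, 3 were higher and 1 lower at an unadjusted p under 0.05, and 4 lay wholly above T3. Of all genes tested, 4.31% were higher and 6.15% lower at that p, and 3.04% lay wholly above T3. The list's median log2 fold change was 0.24, 0.19 without T3 replicate 4 and 0.062 without T5 replicate 1. It was 0.12 without T3 replicate 2 and 0.153 without T3 replicate 3.

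Red cell transcripts were higher on average in T5. Hbb-bs, an adult beta globin, stood at 1225, 745, 952 and 572 CPM in T5, against 330.2, 237, 289.8 and 391 CPM in T3. No T5 library came down to the T3 range, with a log2 fold change of 1.49 ± 0.37 (edgeR adjusted p = 0.267, 0.0146 to 0.595 over the alternatives). The alpha globins Hba-a1 and Hba-a2 had log2 fold changes of 1.31 ± 0.40 and 1.37 ± 0.41 and Hbb-bt 1.38 ± 0.41; near-identical copies make reads of single globin genes uncertain. Alas2, the first enzyme of heme synthesis in red cells, averaged 49.2 CPM in T5 and 20.7 CPM in T3 (log2 fold change 1.25). All 8 erythrocyte genes had a positive fold change, 5 of them at an unadjusted p under 0.05, where 4.31% of all genes were higher. Their median was 1.28 (1.62 without T3 replicate 4). The mean log2 CPM of the list was 5.63, 5.62, 5.70 and 4.58 in T5 and 3.54, 3.62, 3.78 and 5.02 in T3, so T3 replicate 4 overlapped T5. In bulk tissue, more cells of a type and more RNA per cell cannot be told apart, and how much blood stayed in the tissue was not measured.

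Genes of the interferon gamma response and of antigen presentation were mostly higher in T5. Psmb8, a catalytic subunit of the immunoproteasome (chr17:34197721-34201454), stood at 17.8, 7.48, 16.03 and 8.61 CPM in T5, against 6.17, 5.27, 6.67 and 5.69 CPM in T3. T5 replicates 1 and 3 were high and the other 2 were just above T3, with a log2 fold change of 1.07 ± 0.31 (edgeR adjusted p = 0.3). Psmb9, another such subunit, stood at 9.65, 6.77, 10 and 7.85 CPM in T5, against 5.202, 3.26, 4.98 and 4.58 CPM in T3, without overlap, and its log2 fold change was 0.93 ± 0.31. The MHC class II chain H2-Ab1, which presents peptides to CD4 T cells, stood at 66.4, 60.1, 109 and 76.99 CPM in T5, against 54.6, 49.2, 49.2 and 38.6 CPM in T3. The lowest T5 library was above the highest T3 library (log2 fold change 0.71 ± 0.23). Cd74, the class II invariant chain, averaged 137 ± 43.5 CPM in T5 and 91.7 ± 4.37 CPM in T3, and B2m, the light chain of MHC class I, 326 ± 53.9 CPM in T5 and 236 ± 17.1 CPM in T3; Psmb9, Cd74 and B2m were chosen after their values were seen.

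Cxcl10, a chemokine that draws T cells, stood at 6.98, 2.36, 6.101 and 0.9304 CPM in T5, against 0.674, 1.67, 0.365 and 0.865 CPM in T3. T5 replicates 1 and 3 were the highest here too, T5 replicate 4 overlapped T3, and the log2 fold change was 2.17 ± 0.68. Tgtp2, an interferon-induced GTPase with a near-identical copy that makes its reads uncertain, averaged 4.17 ± 2.09 CPM in T5 and 1.76 ± 0.3995 CPM in T3 without overlap. Iigp1, another such GTPase, averaged 8.25 ± 3.93 CPM in T5 and 5.21 ± 2.102 CPM in T3 with overlap. Of 28 genes in the list 21 had a positive fold change, against 50.9% of all genes. At an unadjusted p under 0.05, 10 were higher and 0 lower, against 4.31% and 6.15% of all genes. In the list 5 lay wholly above T3, against 3.04% of all genes. The median was 0.37, against 0.007 for all genes, and it was 0.52 without T3 replicate 4 and 0.30 with the brain covariate. Against CTRL the list's median was 0.81 in T5 and 0.29 in T3, comparisons that share the libraries.

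The type I interferon list followed the same sign in 18 of 21 genes, with a median of 0.41. It was 0.63 without T3 replicate 4 (5 higher, 0 lower at an unadjusted p under 0.05), 0.256 without T5 replicate 1 (0 higher) and 0.617 without T3 replicate 3. Ifit1, an antiviral RNA-binding protein, was with all libraries the 1 member at that p, averaging 17.1 CPM in T5 and 7.28 CPM in T3. Leukocyte adhesion molecules and chemokines had a median of 0.33, with 2 of 20 higher and 1 lower, where 4.31% of all genes were higher and 6.15% lower. The median was 0.63 without T3 replicate 4 (4 higher, 1 lower), 0.074 without T5 replicate 1 and 0.215 without T3 replicate 2. Ccl9, a chemokine for myeloid cells, averaged 4.74 CPM in T5 and 2.37 CPM in T3, and Ccl28, a mucosal chemokine, averaged 0.691 CPM in T5 and 1.77 CPM in T3. The cytokine and acute phase list had 2 of 25 higher, 0 lower and a median of 0.36, which was 0.138 without T5 replicate 1 (0 higher), 0.224 without T5 replicate 3 (0 higher, 1 lower) and 0.513 without T3 replicate 4 (3 higher). Without T3 replicates 1 or 2 it was 0.234 and 0.238. Lcn2, an acute phase protein that binds bacterial siderophores, stood at 2.505, 1.57, 3.19 and 6.16 CPM in T5, against 0.482, 0.814, 0.548 and 3.38 CPM in T3. T3 replicate 4 was within the T5 range and the other T3 libraries were below it, so the log2 fold change of 1.33 ± 1.34 was 2.40 without that library.

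Of the interferon genes just named, only Psmb8, Psmb9, Cxcl10, B2m and Tgtp2 had their promoters searched for an interferon-stimulated response element. This element has the form GAAA, 2 bases of any kind and GAAA. The promoters of 3 of these genes hold it, in capitals below. They are from RefSeq GRCm38.p6 (Cxcl10 chr5:92348840-92349139, minus strand; B2m chr2:122147437-122147736, plus strand; Tgtp2 chr11:49064163-49064462, minus strand), and are shown so that the element can be seen in its place before the start.
Cxcl10: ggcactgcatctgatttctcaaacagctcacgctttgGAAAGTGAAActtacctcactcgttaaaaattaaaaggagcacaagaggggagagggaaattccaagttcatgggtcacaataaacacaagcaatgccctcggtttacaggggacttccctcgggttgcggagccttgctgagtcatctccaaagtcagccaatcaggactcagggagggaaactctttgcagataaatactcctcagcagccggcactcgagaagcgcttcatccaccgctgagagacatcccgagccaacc
B2m: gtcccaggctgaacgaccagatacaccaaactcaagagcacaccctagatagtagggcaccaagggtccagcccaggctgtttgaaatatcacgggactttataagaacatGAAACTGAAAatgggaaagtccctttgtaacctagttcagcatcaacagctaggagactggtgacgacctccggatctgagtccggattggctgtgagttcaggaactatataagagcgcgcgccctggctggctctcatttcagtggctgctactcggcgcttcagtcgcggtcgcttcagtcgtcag
Tgtp2: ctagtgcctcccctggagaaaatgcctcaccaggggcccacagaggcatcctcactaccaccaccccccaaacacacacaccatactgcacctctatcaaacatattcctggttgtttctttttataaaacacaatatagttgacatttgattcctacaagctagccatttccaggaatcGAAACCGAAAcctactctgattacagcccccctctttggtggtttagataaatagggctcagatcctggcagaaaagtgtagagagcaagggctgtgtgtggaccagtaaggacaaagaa
The match begins at position -213 in Cxcl10, -139 in B2m and -70 in Tgtp2. Both strands were searched, and 3.44% of promoters have a match. The windows of Psmb8 and Psmb9 held none.

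The 3 C1q genes and Tyrobp were higher in every T5 library than in any T3 library, by values that did not pass the edgeR test. C1qb, a chain of the recognition protein of the classical pathway made by macrophages and microglia, stood at 84.4, 78.6, 134 and 59.5 CPM in T5, against 43.6, 42.3, 36.2 and 45.95 CPM in T3. Every T5 value was above every T3 value, with a log2 fold change of 1.08 ± 0.28 (edgeR adjusted p = 0.267, 0.0349 to 0.61 over the alternatives). C1qa and C1qc, the other chains, had 1.03 ± 0.30 and 0.85 ± 0.28, also without overlap. C1s1, a protease of the same pathway, was lower at 4.42 ± 0.437 CPM in T5 and 6.35 ± 1.21 CPM in T3, without overlap. Of 14 complement genes tested, 3 were higher and 0 lower at an unadjusted p under 0.05, against 4.31% and 6.15% of all genes. In the list 3 lay wholly above T3 and 1 wholly below, against 3.04% and 4.31% of all genes. The list's median was 0.13, 0.5 without T3 replicate 4 and 0.342 without T5 replicate 4. It was 0.004 and 0.071 without T3 replicates 1 and 2, 0.012 without T5 replicate 3 and 0.001 with the brain covariate. Tyrobp, a signalling adaptor of myeloid receptors chosen after its values were seen, stood at 18.4, 16.9, 33.3 and 14.7 CPM in T5, against 10.5, 9.61, 10.1 and 11.1 CPM in T3. Its T3 libraries were nearly alike and all were below T5 (log2 fold change 1.01 ± 0.25).

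Of 12 microglia genes 11 had a positive fold change and 3 were higher at an unadjusted p under 0.05, against 4.31% of all genes. These were Trem2, a lipid receptor, averaging 5.55 ± 2.47 CPM in T5 and 2.79 ± 0.926 CPM in T3, Siglech, averaging 6.16 ± 4.74 CPM in T5 and 2.48 ± 0.4203 CPM in T3, and Tmem119, averaging 20.6 ± 8.25 CPM in T5 and 10.6 ± 3.07 CPM in T3, all with overlap. The list's median was 0.56, 0.93 without T3 replicate 4 (7 higher) and 0.204 without T5 replicate 3 (0 higher). Brain marker RNA was also higher in T5 and highest in T5 replicate 3, the library with the highest C1qb, Tyrobp and Trem2. With the brain covariate the microglia median was 0.25, and the log2 fold changes were 0.78 for C1qb and 0.80 for Tyrobp. Border macrophages, the resident type of the plexus, had 0 of 12 genes past that p in either direction and a median of 0.22 (0.77 without T3 replicate 4, with 4 higher). It was 0.148 without T5 replicate 1 and 0.095, 0.108 and 0.058 without T3 replicates 1, 2 and 3 in turn. Monocyte and dendritic cell markers, of which 9 of 12 were tested, had a median of -0.36 (-0.12 without T3 replicate 4 and -0.204 without T5 replicate 4). Of the 9, 6 had a negative fold change, where 50.9% of all genes had a positive one. In the list 2 lay wholly below T3, against 4.31% of all genes. Their 1 gene at an unadjusted p under 0.05, Ccr2, a chemokine receptor of monocytes, averaged 0.838 CPM in T5 and 2.41 CPM in T3.

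Neutrophil markers were low. Ly6g had 1 count in the 4 T5 libraries and 0 in the 4 T3 libraries, and 6 of 12 markers reached testing, with 0 at an unadjusted p under 0.05. Their median of 0.254 ran from -0.207 (without T3 replicate 3) to 0.567 (without T3 replicate 4), and was -0.55 with the brain covariate. For lymphocytes, 3 of 12 markers reached testing, with a median of 1.048 that ran from 0.07 (without T3 replicate 1) to 1.173 (without T3 replicate 4) when each library was left out. Of these Ighm, an antibody heavy chain, averaged 8.86 CPM in T5 and 4.27 CPM in T3, and Nkg7, of cytotoxic cells, 1.31 CPM in T5 and 0.515 CPM in T3, without overlap for Nkg7.

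Genes of ciliated cells differed by list, and the ependymal list itself holds genes of motile cilia such as Spag17. Ependymal markers, of the ciliated cells that line the ventricle beside the plexus, were higher in T5 in 11 of 12 cases. Of these 5 were at an unadjusted p under 0.05, where 4.31% of all genes were higher, and the median was 0.42. Without T3 replicate 4 the median was 0.25 and 1 gene was higher at that p, and without T5 replicate 3 also 1. Spag17, a protein of the central pair of motile cilia, stood at 2.35, 0.945, 4.26 and 1.69 CPM in T5, against 0.578, 0.737, 0.594 and 0.453 CPM in T3. All T5 libraries were above T3, at low levels, and the log2 fold change was 1.95 ± 0.47 (edgeR adjusted p = 0.267). Rarres2, which encodes the chemoattractant chemerin, stood at 20.7, 19.2, 38.5 and 19.4 CPM in T5, against 18.5, 12.02, 10.7 and 7.87 CPM in T3, and Tmem212 at 12.2, 9.37, 32 and 11.9 CPM in T5, against 5.59, 5.62, 0.594 and 1.52 CPM in T3. T5 replicate 3 was the highest for both, and T3 replicates 3 and 4 were the lowest for Tmem212. Foxj1, the master regulator of motile cilia, averaged 81.95 ± 17.1 CPM in T5 and 62.1 ± 11.1 CPM in T3, with overlap and a log2 fold change of 0.40 ± 0.17.

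Several genes of the axoneme were lower in T5. Dnah7b, an inner arm dynein heavy chain with related copies nearby, stood at 12.8, 9.92, 12.2 and 17.8 CPM in T5, against 23.9, 19.9, 19.4 and 21.02 CPM in T3. T5 was wholly below T3, with a log2 fold change of -0.67 ± 0.17, while CTRL averaged 23.6 ± 4.21 CPM in CTRL. Cfap44, which tethers inner arm dyneins, stood at 46.9, 32.99, 31.4 and 50.3 CPM in T5, against 60.7, 56.2, 61.6 and 63.4 CPM in T3, a log2 fold change of -0.58 ± 0.15 without overlap. Dnah6, another dynein heavy chain, had -0.74 ± 0.21 and Cfap43, the partner of Cfap44, -0.42 ± 0.13, both without overlap. In the motile cilium list 1 of 27 genes was higher and 5 were lower at an unadjusted p under 0.05. Of all genes, 4.31% were higher and 6.15% lower at that p. In the list 6 lay wholly below T3, against 4.31% of all genes, and 9 had a positive fold change. The median was -0.10, -0.19 without T3 replicate 4 and -0.197 without T5 replicate 4.

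Intraflagellar transport, which carries cargo along all cilia, had 0 of 20 genes higher and 5 lower at that p, where 6.15% of all genes were lower. Ift122, a subunit of the retrograde complex, stood at 96.9, 84.2, 94 and 98.04 CPM in T5, against 119.5, 129, 117 and 116 CPM in T3. The groups did not overlap, and the log2 fold change was -0.37 ± 0.12. Dync2h1, the motor of retrograde transport, had -0.34 ± 0.14, Wdr19, another retrograde subunit, -0.46 ± 0.19, and Ift80, of the anterograde complex, -0.25 ± 0.10, all without overlap. The median of the list was -0.10 (-0.19 without T3 replicate 4, -0.154 without T5 replicate 4 and -0.04 without T3 replicate 1). With the brain covariate it was -0.02, with 5 genes higher and 3 lower.

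In the epithelium itself, Trpm3, a calcium-permeable channel that is highly expressed in the choroid plexus (chr19:22139046-22995410), stood at 1011, 999, 850.1 and 1239 CPM in T5, against 1528, 1427, 1474 and 1670 CPM in T3. Every T5 library was below every T3 library and below the CTRL mean (1485 ± 167 CPM in CTRL), with a log2 fold change of -0.57 ± 0.15 (edgeR adjusted p = 0.267, 0.014 to 0.61 over the alternatives). Ttr, the thyroid hormone carrier that dominates this tissue's RNA, stood at 119700, 89430, 98310 and 148200 CPM in T5, against 118400, 108800, 124000 and 57660 CPM in T3. The groups overlapped, T3 replicate 4 was the lowest, and the log2 fold change of 0.16 ± 0.29 was -0.04 without it. Kl, the anti-ageing hormone Klotho, averaged 2355 ± 296 CPM in T5 and 3068 ± 309 CPM in T3 and Clic6, a chloride channel protein, 1682 ± 204 CPM in T5 and 2042 ± 238 CPM in T3, both with overlap. Of 18 epithelial markers 0 were higher and 2 lower at an unadjusted p under 0.05, against 4.31% and 6.15% of all genes. Their median was -0.16. It was -0.28 without T3 replicate 4 and -0.238 without T5 replicate 4, each with 3 lower, and 0.006 with the brain covariate, with 3 higher and 1 lower.

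Transporters for organic solutes were lower in T5 in 16 of 18 cases, 5 of them and 0 higher ones at an unadjusted p under 0.05. Of all genes tested, 6.15% were lower and 4.31% higher at that p. Slc28a3, a concentrative nucleoside transporter, stood at 21.96, 17.4, 17.7 and 24.8 CPM in T5, against 27.3, 26.3, 31.3 and 33.5 CPM in T3. T5 stayed below T3 throughout, with a log2 fold change of -0.53 ± 0.18. Abcc4, a pump that exports organic anions, stood at 76.8, 53.9, 62.9 and 78.3 CPM in T5, against 86.9, 103, 96.7 and 111 CPM in T3, without overlap, with -0.55 ± 0.23. Abcc1, a related pump, averaged 55.1 ± 11.98 CPM in T5 and 77.95 ± 14.6 CPM in T3 and Slc6a20a, a proline transporter, 125 ± 29.8 CPM in T5 and 193 ± 99.99 CPM in T3, both with overlap. Slc6a20a was 343 CPM in T3 replicate 4, and its log2 fold change of -0.62 ± 0.28 was -0.20 without that library. The list's median of -0.23 was -0.14 without it, with 1 gene lower, -0.145 without T5 replicate 2, also with 1 lower, and -0.211 without T5 replicate 3, again with 1. With T3 replicate 2 left out 2 were lower. Ion and water transporters of fluid secretion had a median of -0.16, with 0 of 20 higher and 2 lower (-0.091 without T3 replicate 3). Slc4a7, a bicarbonate transporter, had a log2 fold change of -0.50 ± 0.20. Trpv4, an osmosensing channel, averaged 382 ± 64.1 CPM in T5 and 505 ± 35.7 CPM in T3, without overlap, and Aqp4, a water channel of astrocytes, 53.5 ± 42.95 CPM in T5 and 15.2 ± 7.69 CPM in T3.

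Secreted factors and their receptors included Slit2 and 2 other genes that were lower at an unadjusted p under 0.05. Igf2r, which takes up IGF2 and lysosomal enzymes, stood at 50.3, 41.96, 47.5 and 65.2 CPM in T5, against 78.3, 87.5, 86.4 and 109 CPM in T3. T5 was wholly below T3, with a log2 fold change of -0.82 ± 0.23 (edgeR adjusted p = 0.299). Htr2c, the serotonin receptor of the choroid plexus, stood at 205, 169.9, 181 and 279 CPM in T5, against 323, 246, 291 and 268 CPM in T3, with T5 replicate 4 inside the T3 range and a log2 fold change of -0.43 ± 0.17. Bmp4, a secreted morphogen, averaged 23.8 ± 6.42 CPM in T5 and 31.2 ± 6.36 CPM in T3 with overlap. The list had 0 of 24 genes higher and 3 lower, against 4.31% and 6.15% of all genes, and a median of -0.17. It was -0.103 without T3 replicate 4, with 2 higher and 3 lower.

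Junction genes differed by member. Pard6b and Pard3, polarity proteins that place tight junctions, had log2 fold changes of -0.58 ± 0.22 and -0.32 ± 0.13, and Cgn, a junction plaque protein, -0.56 ± 0.21, all wholly below T3. Cgn stood at 27.1, 17.7, 25.3 and 24.7 CPM in T5, against 38.4, 37.1, 29.9 and 34.9 CPM in T3, and T5 replicate 2 was its lowest library. Cldn10, a claudin that forms ion pores, stood at 5.33, 16.9, 21.6 and 4.19 CPM in T5, against 2.02, 2.56, 4.25 and 7.01 CPM in T3, higher in T5 with overlap. Its high libraries were T5 replicates 2 and 3, those with the most brain marker RNA, and its log2 fold change of 1.58 ± 0.52 was 0.83 with the brain covariate. The claudins of the plexus barrier overlapped between the groups. Cldn1 averaged 314 ± 49.6 CPM in T5 and 381 ± 67.1 CPM in T3, Cldn2, a cation pore, 542 ± 72.1 CPM in T5 and 564 ± 63.2 CPM in T3, and Cldn3 38.1 ± 4.33 CPM in T5 and 35.96 ± 10.2 CPM in T3. Ocln, a junction strand protein, stood at 147, 138, 147 and 172 CPM in T5, against 175, 194, 181 and 183 CPM in T3, wholly below T3 with a log2 fold change of -0.28 ± 0.17 (adjusted p = 0.547 by edgeR). Tjp1, a scaffold of tight junctions, averaged 26.9 ± 6.12 CPM in T5 and 32.3 ± 19.6 CPM in T3 with T3 replicate 4 at 61.7 CPM, and its log2 fold change of -0.27 ± 0.33 was 0.26 without it. Of 19 junction genes 2 were higher and 3 lower at an unadjusted p under 0.05, against 4.31% and 6.15% of all genes, with a median of -0.10. It was -0.041 without T5 replicate 2, with 1 higher and 1 lower, and 1 higher and 2 lower were left without T3 replicate 4.

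Vascular genes gave fewer differences. Plvap, the diaphragm protein of fenestrated capillaries, stood at 28.7, 31.7, 58.4 and 28.3 CPM in T5, against 22.2, 25.1, 27.03 and 17.02 CPM in T3. The T5 libraries were all above T3, T5 replicate 3 far above the rest, and CTRL averaged 35 ± 11.2 CPM in CTRL, so the T3 mean was below both others. The log2 fold change was 0.68 ± 0.36, with an edgeR adjusted p of 0.503 (0.352 to 0.788 over the alternatives). Cdh5, the cadherin of endothelial junctions, averaged 3.99 ± 2.69 CPM in T5 and 2.47 ± 1.83 CPM in T3, Kdr, the main VEGF receptor, 25.7 ± 3.74 CPM in T5 and 27.8 ± 11.3 CPM in T3, and Cldn5, the claudin of tight endothelia, 18.4 ± 18.2 CPM in T5 and 18.8 ± 18.2 CPM in T3, all with overlap. Kdr and Cldn5 had negative fold changes that turned positive without T3 replicate 4 (0.15 and 0.90). Of 20 endothelial genes 1 was higher and 0 were lower at an unadjusted p under 0.05, against 4.31% and 6.15% of all genes. Their median was 0.15. It was 0.61 without T3 replicate 4 (3 higher), 0.254 without T5 replicate 4, and near 0 without T5 replicate 1 (-0.006), T3 replicate 1 (-0.01) or T3 replicate 2 (0.027). Without T3 replicate 3 it was 0.097.

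Targets of Wnt beta-catenin signalling, which maintains the barrier of brain vessels, had 0 of 16 genes higher and 2 lower. At the same unadjusted p under 0.05, 4.31% of all genes were higher and 6.15% lower. Fzd4, a Wnt and norrin receptor, stood at 103, 109, 104 and 128 CPM in T5, against 149.9, 151, 148 and 149 CPM in T3. The T3 libraries were nearly identical and T5 lay below them, with a log2 fold change of -0.43 ± 0.14. Rnf43, a ligase that removes Wnt receptors, averaged 12.04 ± 3.796 CPM in T5 and 18.8 ± 2.83 CPM in T3, with overlap. Axin2, a feedback inhibitor of the pathway, averaged 7.74 ± 1.93 CPM in T5 and 5.79 ± 0.845 CPM in T3 and Ccnd1, a G1 cyclin, 5.78 ± 1.85 CPM in T5 and 3.66 ± 0.602 CPM in T3, both with overlap. The list's median was 0.19, 0.43 without T3 replicate 4 and -0.21 with the brain covariate. It was 0.353 without T5 replicate 4, and 0.078, -0.044, 0.072 and 0.075 without T5 replicate 2 and T3 replicates 1, 2 and 3 in turn.

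Basement membrane and matrix genes depended on T3 replicate 4. Lamb2, a laminin beta chain, stood at 53.4, 44.4, 40.6 and 42.7 CPM in T5, against 58.1, 63.4, 59.8 and 153 CPM in T3. T5 was wholly below T3, and the log2 fold change of -0.89 ± 0.26 was -0.42 without T3 replicate 4. Nid2, which links laminin to collagen IV, stood at 112, 72.3, 81.4 and 116 CPM in T5, against 139, 149.7, 138 and 163 CPM in T3, without overlap, with -0.63 ± 0.23 (-0.58 without it). Lamb1, another laminin chain, had -0.53 ± 0.22 and Fbn1, the microfibril protein fibrillin, -0.75 ± 0.22, both without overlap. Col1a2, a fibrillar collagen, averaged 97.5 ± 27.9 CPM in T5 and 130.5 ± 88.8 CPM in T3 and Fn1, fibronectin, 15.7 ± 16.3 CPM in T5 and 41.6 ± 68.9 CPM in T3. Both overlapped, and their log2 fold changes of -0.42 ± 0.34 and -1.41 ± 1.20 were 0.17 and 1.101 without that library. Of 32 matrix genes 24 had a negative fold change. At an unadjusted p under 0.05, 0 were higher and 5 lower, against 4.31% and 6.15% of all genes. The list's median of -0.36 became 0.30 without T3 replicate 4, with 3 higher and 4 lower. It was -0.58 without T5 replicate 1, with 9 lower, and -0.236 without T5 replicate 4.

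Stress genes showed an inducible pair. Hspa1a and Hspa1b, near-identical inducible HSP70 chaperone genes whose reads cannot be assigned with certainty, stood at 8.31, 8.503, 6.598 and 9.595 CPM in T5, against 4.14, 4.11, 4.84 and 5.56 CPM in T3 for Hspa1a and 8.26, 7.72, 11.2 and 16.8 CPM in T5, against 6.84, 3.88, 3.42 and 5.44 CPM in T3 for Hspa1b. Both were higher in all T5 libraries than in any T3 library, with log2 fold changes of 0.82 ± 0.31 and 1.18 ± 0.44, and CTRL averaged 8.31 ± 4.09 CPM in CTRL for Hspa1a. Hsf1, the factor that induces them, was lower in T5 at 35.3 ± 3.15 CPM in T5 and 45.4 ± 2.02 CPM in T3, without overlap. Hspe1, a mitochondrial chaperonin, averaged 147 ± 28.1 CPM in T5 and 109 ± 36.8 CPM in T3 with overlap. Of 18 heat shock genes 2 were higher and 1 lower at an unadjusted p under 0.05, against 4.31% and 6.15% of all genes. Their median of 0.12 was 0.048 without T3 replicate 4 and 0.07 without T5 replicate 4. It was 0.259 with the brain covariate (8 higher, 1 lower). Fkbp5, a glucocorticoid target, averaged 22.1 ± 8.95 CPM in T5 and 20.8 ± 9.75 CPM in T3 and did not separate the groups; its list had 2 of 21 higher and 1 lower, with a median of 0.12 (0.43 with 4 higher without T3 replicate 4, 0.048 without T3 replicate 3). The nuclear genes of the respiratory chain had a positive fold change in 29 of 31 cases with 0 in either direction at an unadjusted p under 0.05, and their median of 0.22 was 0.05 without T3 replicate 4. With the brain covariate it was 0.46, and 23 of the 31 were higher at that p. In the antioxidant list Gstm1, a glutathione transferase, averaged 158 CPM in T5 and 102 CPM in T3 with overlap, and Prdx6, a peroxiredoxin, averaged 363 CPM in T5 and 286 CPM in T3 without it.

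**Figure D3:**
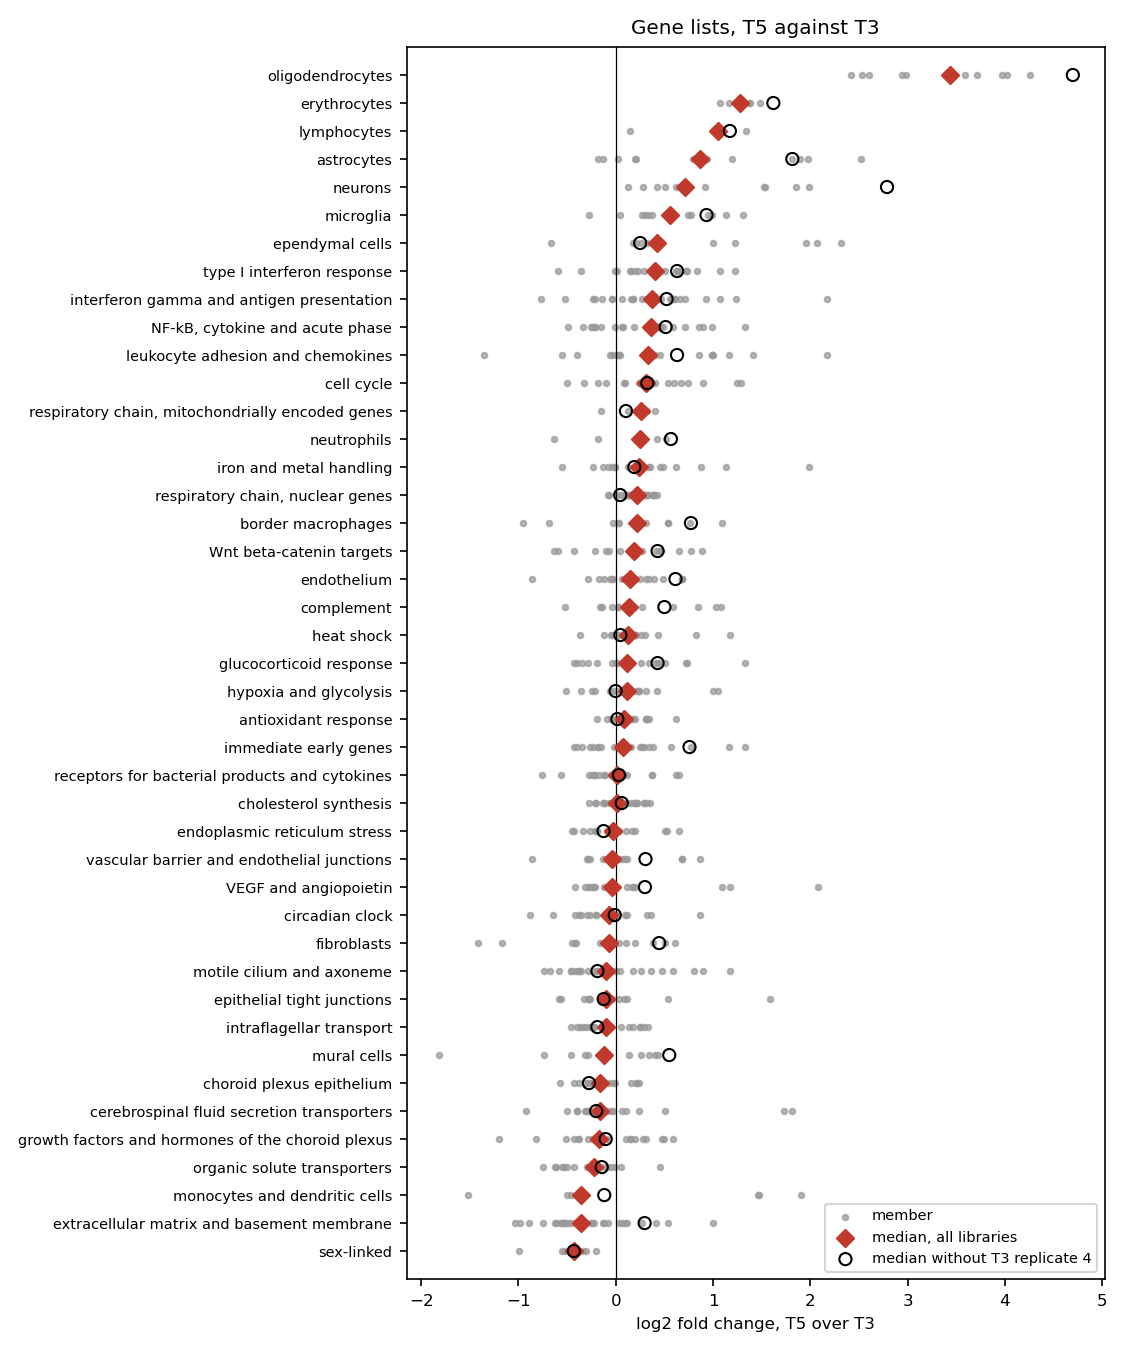
Log2 fold change of T5 over T3 for the members of 43 gene lists (grey), with the median over all libraries (diamonds) and without T3 replicate 4 (circles). Oligodendrocyte and erythrocyte genes lie furthest to the right, and the matrix median crosses 0 when T3 replicate 4 is left out.

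Oligodendrocyte genes had the largest list median. All 12 oligodendrocyte genes were higher on average in T5, 8 at an unadjusted p under 0.05, where 4.31% of all genes were higher. None was without overlap, and their median was 3.43. Mbp, a myelin protein, stood at 212, 369.8, 8338 and 542 CPM in T5, against 76, 119, 97.8 and 491 CPM in T3. T5 replicate 3 was far above the rest and T3 replicate 4 was above T5 replicates 1 and 2. The median was 4.70 without T3 replicate 4, 0.86 without T5 replicate 3, and 0.31 with the brain covariate, which was built from these markers. With T5 replicate 3 or any of T3 replicates 1, 2 and 3 left out, 0 oligodendrocyte genes had an unadjusted p under 0.05. Neuron genes were positive in 12 of 12 cases with 0 at that p and a median of 0.71. That median was -0.235 without T5 replicate 2, 2.788 without T3 replicate 4 with 10 genes higher, and -0.028 with the brain covariate. Without T3 replicates 1, 2 or 3 in turn it was 0.364, 0.439 and 0.399. Their mean log2 CPM ran from 2.37 to 5.57 in T5 and from 0.50 to 5.14 in T3. Snap25, a synaptic SNARE protein, stood at 25.4, 230.4, 48.6 and 36.6 CPM in T5, against 7.71, 16.9, 11.7 and 142 CPM in T3, high in T5 replicate 2 and T3 replicate 4. Astrocyte genes were positive in 10 of 12 cases, 2 at that p, with a median of 0.86. It was 1.815 without T3 replicate 4, with 7 higher, and 0.492 without T5 replicate 3 and 0.06 with the brain covariate, with 0 higher in both. Their mean log2 CPM ran from 4.63 to 6.72 in T5 and from 4.28 to 6.24 in T3. No marker of these 3 lists was at 0. The brain covariate was built from the markers of all 3 lists, so their medians with it are not a separate result. What brain marker RNA contributes to the other differences was not tested beyond the covariate.

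**Figure D4:**
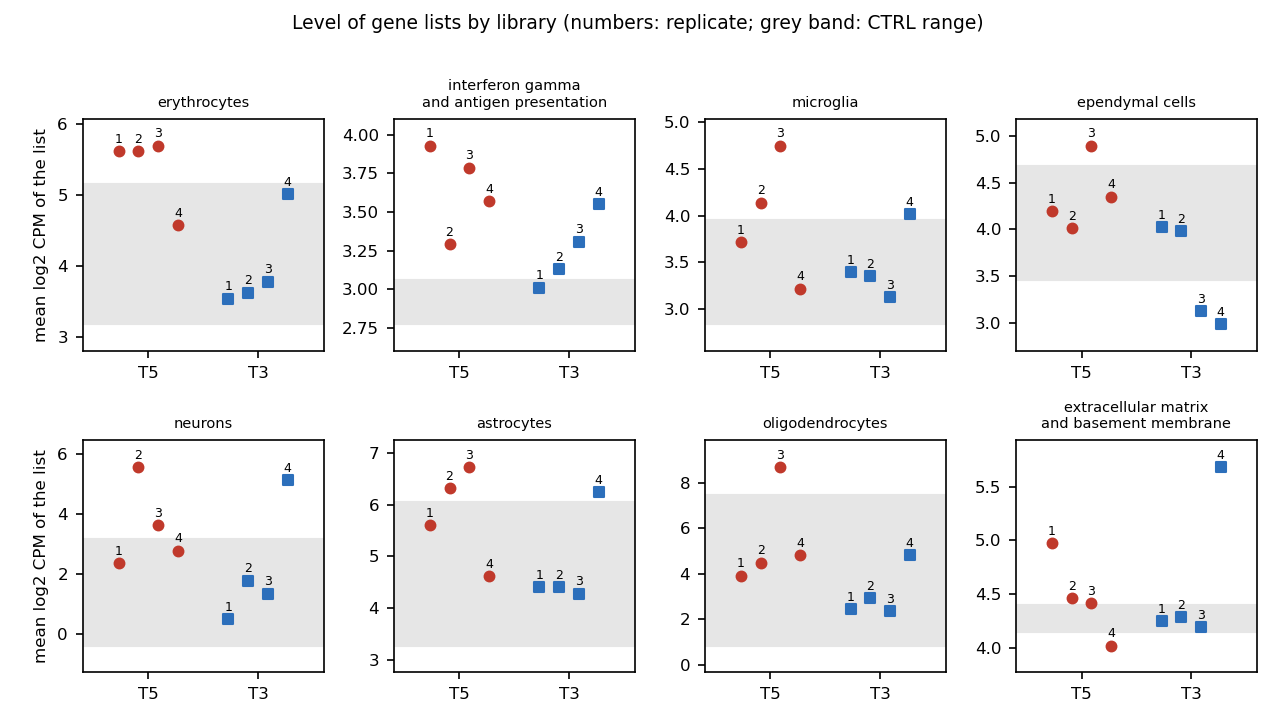
Mean log2 CPM of 8 gene lists in each T5 and T3 library (numbers give the replicate), with the CTRL range as a grey band. T3 replicate 4 lies above the other T3 libraries in every panel but that of ependymal cells, and T5 replicate 3 is the highest T5 library for oligodendrocyte, astrocyte, microglia and ependymal genes.

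Genes that do not encode proteins made up 14.2% of genes tested, 7.02% of those higher in T5 (51 genes) and 21.7% of those lower (225 genes) at an unadjusted p under 0.05. Their median log2 fold change was -0.16, and 0.02 for protein-coding genes. T3 replicate 4 had 1.05% of its counts in a part of such genes, the lincRNA, antisense, sense intronic and similar classes. Pseudogenes were not in that part. The share was 0.686% to 0.727% in T5 and 0.662% to 0.735% in the other T3 libraries. Without T3 replicate 4, genes that do not encode proteins were 4.41% of higher genes (68 genes) and 13.7% of lower genes (104 genes), and their median was -0.06. The balance of higher and lower genes depended on the setting. Without T3 replicate 4 there were 2299 genes at an unadjusted p under 0.05, 1541 higher in T5 and 758 lower, in place of 727 higher and 1037 lower. With every library kept, higher genes also outnumbered lower ones with limma voom (1461 higher, 1172 lower) and with the brain covariate (1537 and 1128). The same held with a term for title numbers of 28 and above (1728 and 875). T3 replicate 4 is the only library of this comparison that the term covers, so that setting is not separate from leaving it out.

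**Figure D5:**
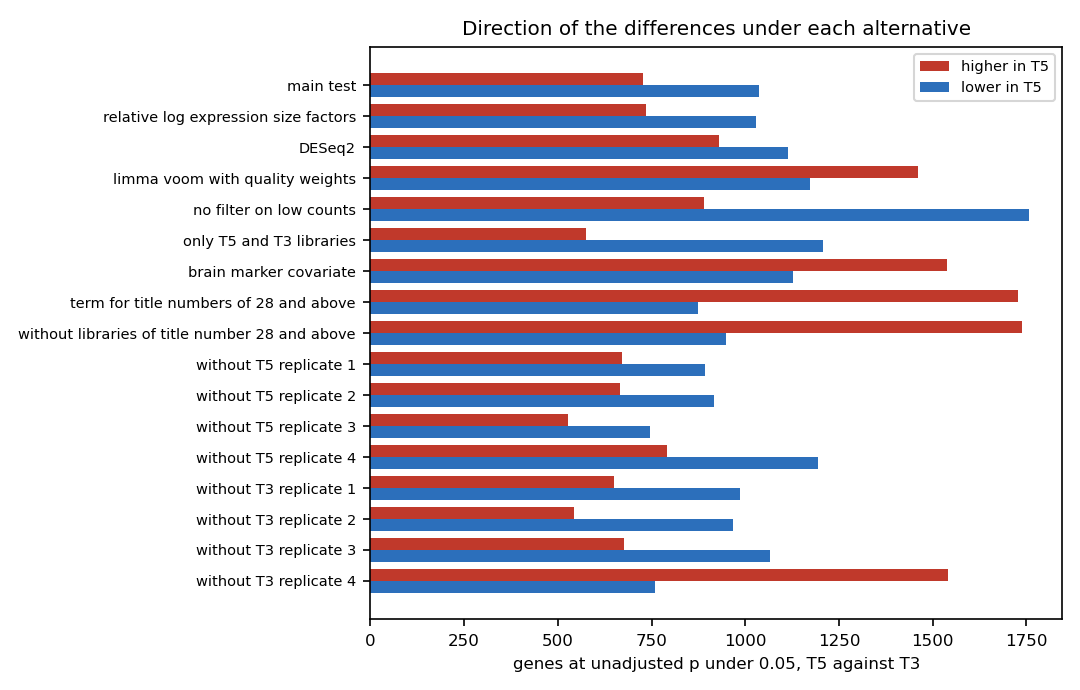
Number of genes at an unadjusted p under 0.05 that were higher or lower in T5 than in T3, as tested and under 16 alternatives. In the edgeR test as reported lower genes outnumber higher ones (1037 and 727); higher genes outnumber lower ones without T3 replicate 4 (1541 and 758), and also with voom, the brain covariate and the term for title numbers.

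Set against the controls, neither group gave a call by edgeR. T5 against CTRL had 0 genes past the adjusted threshold (0%), with a lowest adjusted p of 0.521 and 1320 genes (7.83%) at an unadjusted p under 0.05. T3 against CTRL had 0 (0%), a lowest adjusted p of 0.590 and 838 such genes (4.97%). The 2 comparisons share the CTRL libraries and each shares a group with T5 against T3. Among the genes described, the T5 mean was nearer to CTRL than the T3 mean was for Arntl, Npas2, Dbp, Gna12, Plvap, Rhou and Hspa1a. The same held for Arhgdig, Kmt5a, Ramp3, Spag17, Foxj1, Zfp507 and Ocln, among others. The T3 mean was nearer to CTRL for Psmb8, H2-Ab1, Cxcl10, C1qb, Tyrobp, Trpm3, Dnah7b, Cfap44 and Dnmbp, among others. The genes listed are examples, and how many lie in each direction was not counted. These are values side by side, with no test of the difference between them.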

How the data were processed

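Per the labels, RNA of choroid plexus was sequenced from 17 samples, of which the 4 T5 and 4 T3 libraries are compared. The authors deposited raw counts per Ensembl gene in one table. Per the submitters' processing notes, Trimmomatic 0.39, STAR 2.6.1b, featureCounts 1.6.4 and the build GRCm38 were used; not given in the sources used here are annotation release, strandedness and how multiply matching reads were treated. Assignment is thus uncertain for near-identical, overlapping or antisense genes, and PCR duplicates are included.

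Symbols and 1-based coordinates came from GENCODE M21 (55394 of 55487 identifiers matched, 93 did not). edgeR 4.0.16 (R 4.3.3) was applied to the counts of all 17 libraries: filterByExpr by group (16851 genes kept), TMM, 1 mean per group, robust quasi-likelihood F tests for T5 minus T3, Benjamini-Hochberg adjustment, threshold 0.05. The SE of a log2 fold change is its size divided by the square root of F and is approximate. CPM are TMM-normalised, and list levels are means of log2 CPM with a prior count of 2. Deposited totals of the 8 libraries were 10881890 to 26839417 counts. No pair of libraries of a group agreed within sampling noise (chi-square per gene of 7.71 to 120). The fits were tested on simulated counts.

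Alternatives were relative log expression factors, DESeq2 1.42.0, limma 3.58.1 (voom with quality weights), no filter, only the 8 libraries, a covariate of brain marker level, a term for or removal of the 4 libraries with title numbers of 28 and above, and leaving out each library. T3 replicate 4 is the only one of those 4 in this comparison. The 43 gene lists (770 genes, all matched) and the members were chosen with earlier results of these data known.

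Genes were named as follows: the 12 per direction with the smallest p, a mean of at least 1 CPM, an established symbol and no overlap between groups; a set of clock, barrier, epithelial and marker genes; up to 4 members of each list described; and those said to be chosen after their values were seen. Some genes that this rule takes are not reported here. Members of lists given only by counts are named where their p was under 0.05. Tfrc was named outside these rules. Promoters are 300 bases from RefSeq GRCm38.p6, searched on both strands.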

Additional observations from a re-analysis of the deposited data

Results flagged for a closer look

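In 26 of 252 sets of 4 libraries, 1 library lay far from the other 3, with a gap above 0.829 of the set's range. Chance alone gives such a gap in about 5% of sets.

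T3 replicate 4 was that library in 13 sets. It had the highest T3 value of Rhou (4.78 CPM), Tjp1 (61.7 CPM), Lcn2 (3.38 CPM), Col1a2 (263 CPM), Fn1 (145 CPM), Lamb2 (153 CPM), Slc6a20a (343 CPM) and the microglia gene Tmem119 (15.2 CPM). Its brain markers were also high, with Mbp at 491 CPM and Snap25 at 142 CPM. The mean log2 CPM of 3 lists stood apart there too, at 5.02 for erythrocytes, 6.24 for astrocytes and 5.68 for extracellular matrix and basement membrane.

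T5 replicate 3 was that library for Mbp (8340 CPM), Fth1 (7430 CPM), Plvap (58.4 CPM), Kdr (31.3 CPM), Rarres2 (38.5 CPM), Tmem212 (32 CPM) and, as the lowest, Zfp507 (8.23 CPM). T5 replicate 2 was high for Snap25 (230 CPM) and Fkbp5 (35.4 CPM). T5 replicate 1 was high for Cldn5 (45.6 CPM) and low for Ift80 (40.3 CPM). T5 replicate 4 was high for Prtg (12.4 CPM) and low for the erythrocyte list (4.58 mean log2 CPM).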

How the results depend on the processing

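DESeq2 called 84 genes and leaving out T5 replicate 4 gave 1 call; the other alternatives gave 0. Genes at an unadjusted p under 0.05 numbered 2647 with no filter on low counts (of 39303 genes), 2665 with the brain covariate, 2688 without libraries of title number 28 and above, and 1273 to 2299 when each library was left out, against 1764. Calls in those leave-outs ran from 0 to 1. Of 118 named genes, 14 had the other sign in at least 1 of the 16 alternatives, with no adjusted p under 0.05 there. Per1 was -0.003 with no filter, -0.023 with only T5 and T3 libraries, -0.14 with the brain covariate and -0.17 to 0.28 in leave-outs. With the brain covariate Nr1d1 was -0.20 (leave-outs -0.002 to 0.17), Ciart -0.24 (-0.17 to 0.39), Cldn2 0.12 (-0.12 to 0.01), Fkbp5 -0.30 (-0.24 to 0.43) and Aqp4 -0.02 (1.44 to 2.20). Aqp4 is itself an astrocyte marker in that covariate. With voom, the term for title numbers, removal of those libraries and leave-outs, in that order, Kdr was 0.12, 0.27, 0.15 and -0.32 to 0.15, Cldn3 -0.029, -0.048, -0.083 and -0.082 to 0.26, Cldn5 0.42, 0.47, 0.89 and -1.02 to 0.90, Tjp1 0.14, 0.16, 0.26 and -0.41 to 0.26, Ttr -0.03, -0.036, -0.047 and -0.045 to 0.27, and Fn1 0.18, 0.47, 1.09 and -2.31 to 1.101. Col1a2 was 0.076 with voom, 0.17 without those libraries and -0.62 to 0.17 in leave-outs, and Snap25 -0.27 to 2.80. The cause was not tested. List medians moved by more than the spread between libraries in 33 cases and by less in 655.

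No paired analysis was made, because the labels link no T5 sample to a T3 sample. The replicate numbers used here were assigned in order of the title numbers within each group. With 4 libraries a group the whole comparison is limited by their spread, and genes of few CPM by counting error as well.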
